A study of Mus musculus with 4 samples.

Results

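The genes described here are 10 components of bone morphogenetic protein (BMP) signalling: the receptor genes Bmpr1a and Bmpr2, the Smad genes Smad1, Smad4, Smad5, Smad6 and Smad7, and the Id genes Id1, Id2 and Id3. They were taken by symbol from the 55487 genes in the files, and all 10 were found and passed the filter on low counts. RNA was read from sorted stem cells of the mouse intestine, which carry Lgr5-EGFP-IRES-creERT2, an allele that places a green fluorescent reporter and an inducible recombinase under the Lgr5 promoter. All libraries came from animals of this genotype, aged 6 to 12 weeks, with no treatment. Small-intestinal stem cells (SISC) came from pieces next to the pylorus and next to the cecum and were gated as EGFP-positive and CD24-negative. Large-intestinal stem cells (LISC) came from cecum to rectum and were gated as EGFP-positive, with no CD24 gate named. There were 2 libraries in each of the 2 groups. Whether the 2 libraries of a group came from different animals is not stated in the labels; the p-values therefore speak only to the spread among these 4 samples, and that spread may be technical.

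BMP ligands bind a complex of type I receptors such as BMPR1A and type II receptors such as BMPR2. The type I receptor then phosphorylates SMAD1, SMAD5 and SMAD9, which join SMAD4, enter the nucleus and switch on targets, the Id genes among them, while SMAD6 and SMAD7 hold the pathway back. In the intestine BMP signalling is known to be low at the crypt base, where antagonists from the surrounding stroma protect the stem cells, and higher towards the differentiated cells. Id proteins have a helix-loop-helix but no DNA-binding region, so they bind and disable E proteins and other helix-loop-helix factors.

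In GENCODE vM21 (GRCm38), the receptor genes are Bmpr1a (ENSMUSG00000021796) at chr14:34410734-34503341 (minus strand) and Bmpr2 (ENSMUSG00000067336) at chr1:59763400-59879014 (plus strand). The receptor-regulated and common Smad genes are Smad1 (ENSMUSG00000031681) at chr8:79338395-79399518 (minus strand), Smad5 (ENSMUSG00000021540) at chr13:56703010-56742377 (plus strand) and Smad4 (ENSMUSG00000024515) at chr18:73639009-73703780 (minus strand). The inhibitory Smad genes are Smad6 (ENSMUSG00000036867) at chr9:63953076-64022059 (minus strand) and Smad7 (ENSMUSG00000025880) at chr18:75367529-75395935 (plus strand). The Id genes are Id1 (ENSMUSG00000042745) at chr2:152736251-152737410 (plus strand), Id2 (ENSMUSG00000020644) at chr12:25093799-25097140 (minus strand) and Id3 (ENSMUSG00000007872) at chr4:136143497-136145755 (plus strand).

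Expected counts summed to between 12795434 and 27227715 per library. Lgr5 itself stood at 114 and 173 CPM in SISC and at 147 and 89.7 CPM in LISC, where CPM is a gene's share of the library's counts, scaled with TMM factors. Of the 10 markers of sorted stem cells and epithelium, 0 were called, and Smoc2 and Axin2 were lower in both LISC libraries. Smoc2, a stem cell marker, stood at 278 and 389 CPM in SISC and at 148 and 106 CPM in LISC (log2 difference −1.40, edgeR adjusted p = 0.172). Axin2, a Wnt target of crypt cells, stood at 290 and 295 CPM in SISC and at 123 and 96.7 CPM in LISC (log2 difference −1.41, edgeR adjusted p = 0.119). Both were named after their values were seen, and their part in the results on the members was not tested. The libraries also differed by replicate number: the rRNA gene CT010467.1 held 24.1% (SISC) and 28.5% (LISC) of the counts of replicate 1, but 0.0917% and 0.0997% of those of replicate 2. Differences of LISC over SISC within each replicate number are therefore given for the members as well. Each of these compares 1 library with 1 library and has no test.

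None of the 10 members passed the test between LISC and SISC. The components of signal transmission, Bmpr1a, Bmpr2, Smad1, Smad4 and Smad5, differed by at most 1.34-fold between the group means fitted by edgeR. The 3 Id genes had lower levels in both LISC libraries than in either SISC library, most so Id3, with a mean of 57.4 ± 13.9 CPM in SISC against 25.4 ± 2.35 CPM in LISC (SD, n = 2 each). In bulk RNA of sorted cells, fewer cells of a type and less RNA per cell cannot be told apart. The inhibitory Smad6 had higher levels in both LISC libraries, at 9.42 ± 0.968 CPM against 5.59 ± 1.77 CPM. The test was edgeR's quasi-likelihood test with Benjamini-Hochberg adjustment over 14165 genes, which called 2.20% of all genes tested (1.45% higher in LISC and 0.741% higher in SISC). The smallest difference it called in any gene was 3.07-fold (1.62 on the log2 scale), larger than that of any member. Of the members, 1 of 10 (Id3) had an unadjusted edgeR p below 0.05, against 13.4% of all genes tested. The groups did not overlap in 7 of the 10 members, with SISC above in 4 and LISC above in 3. Among all genes tested, groups did not overlap in 40.3%, with SISC above in 18.4% and LISC above in 21.9%. The median log2 difference of the members was −0.050, beside −0.021 over all genes tested.

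**Figure D1:**
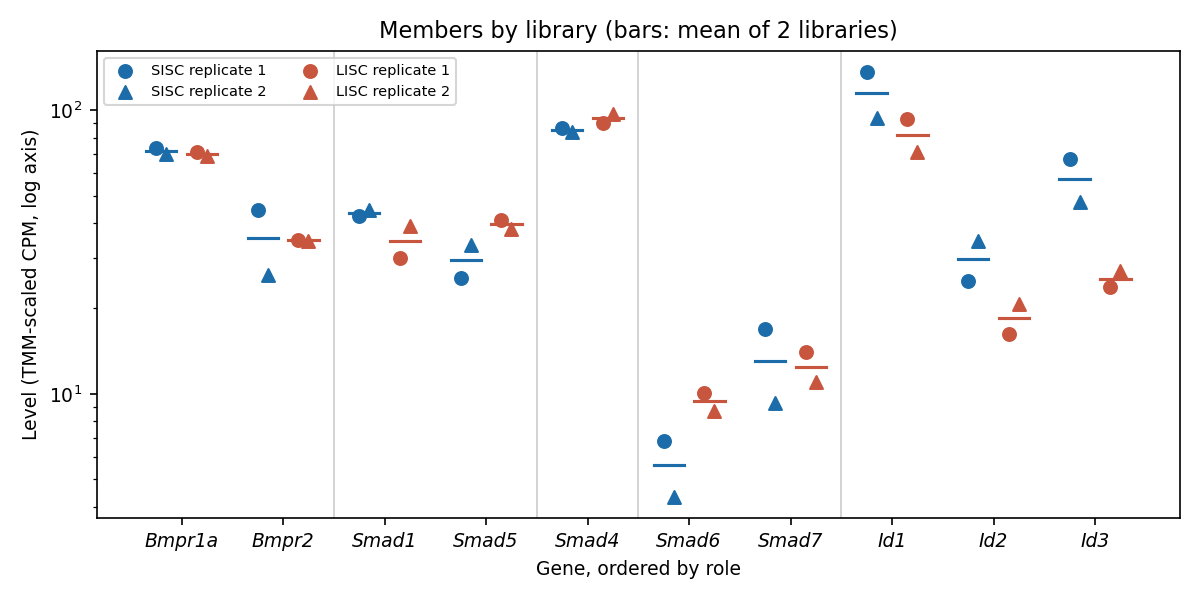
Level of each member in each of the 4 libraries, in TMM-scaled CPM on a log axis, with genes ordered by role. Circles are replicate 1, triangles replicate 2, and short bars the mean of the 2 libraries of a group. Both LISC libraries lie below both SISC libraries for Id1, Id2 and Id3 and above them for Smad6, while Bmpr1a lies between 68.9 and 73.4 CPM in all 4.

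Among the receptors, Bmpr1a encodes the type I receptor that, in the mouse intestine, is known to restrain crypt formation. It stood at 73.4 and 70.1 CPM in SISC and at 71.3 and 68.9 CPM in LISC. These 4 values overlapped between groups and were the closest of any member. The fitted log2 difference was −0.035 ± 0.24 (SE; edgeR adjusted p = 0.9995), with a 95% interval of −0.67 to 0.60, which spans levels in LISC from 0.630 to 1.51 times those in SISC.

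Bmpr2, the type II receptor gene, stood at 44.5 and 26.3 CPM in SISC and at 34.9 and 34.6 CPM in LISC. Both LISC values lay between the SISC values, so the spread between SISC replicates exceeded the difference between groups. The log2 difference was −0.023 ± 0.32 (edgeR adjusted p = 0.9995), and it had opposite signs within replicate 1 (−0.35) and within replicate 2 (0.40). On the TPM scale, which allows comparison between genes because it divides by transcript length, Bmpr1a stood 3.51 to 5.77 times above Bmpr2 in the 4 libraries.

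Smad1 and Smad5 encode receptor-regulated Smads. Smad1 stood at 42.5 and 44.4 CPM in SISC and at 30.02 and 38.9 CPM in LISC. Both LISC libraries were lower, by a log2 difference of −0.33 ± 0.25 that did not pass (edgeR adjusted p = 0.790). Smad5 stood at 25.6 and 33.5 CPM in SISC and at 41.1 and 37.98 CPM in LISC. Here both LISC libraries were higher, by a log2 difference of 0.42 ± 0.25 that did not pass either (edgeR adjusted p = 0.669). The ratio of Smad1 to Smad5 in TPM was 3.32 and 2.89 in the SISC libraries and 1.84 and 2.28 in the LISC libraries, so Smad1 was the higher of the pair in all 4 libraries and the ratios did not overlap between groups. On the TPM scale neither gene alone separated the groups. Smad5 was at 3.11 and 6.38 TPM in SISC and at 4.02 and 7.96 TPM in LISC, and Smad1 at 10.3 and 18.4 TPM in SISC and at 7.38 and 18.1 TPM in LISC. Both genes were thus lower in replicate 1 of each group, and TPM carries no TMM factor. Bmpr1a, whose CPM were close in all 4 libraries, stood at 8.94 (SISC) and 7.73 TPM (LISC) in replicate 1. In replicate 2 it stood at 14.4 and 16.02 TPM. Overlaps and spreads in TPM, here and below, may carry such a difference between replicate numbers, whose cause was not tested.

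The ends of the Smad coding sequences show what separates these classes: the receptor phosphorylates serines in the last codons of SMAD1 and SMAD5, and the inhibitory SMAD6 lacks that motif. The last 30 coding bases before the stop codon are given 5′ to 3′ from GENCODE vM21 transcripts (GRCm38), with the last 12 bases, the final codons, in capitals. Smad1 lies on the minus strand at chr8:79339652-79339681 (exon 7 of its transcript), Smad5 on the plus strand at chr13:56737446-56737475 (exon 7) and Smad6 on the minus strand at chr9:63953527-63953556 (exon 4).
Smad1: tcaccccacaatcctattTCATCCGTGTCT
Smad5: tctccgctgaaccccattTCTTCTGTTTCA
Smad6: tggctggagatcctactcAACAACCACAGA
Of the 12 capital bases, Smad1 shares 8 with Smad5 and 1 with Smad6. The longest run of bases shared by any transcripts of Smad1 and Smad5 was 17, and that shared by Smad1 and Smad9 was 29.

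Smad4, the common partner of the receptor-regulated Smads in both BMP and TGF-beta signalling, stood at 86.5 and 83.9 CPM in SISC and at 90.1 and 96.9 CPM in LISC. The LISC libraries were both higher by a small margin, with a log2 difference of 0.13 ± 0.25 (edgeR adjusted p = 0.977; 95% interval −0.52 to 0.79). In TPM it reached 19.3 and 34.2 in SISC and 28.1 and 39.3 in LISC, and these ranges overlapped. The deposited transcript length behind the TPM of Smad4, an average over its 6 transcripts weighted by their estimated abundance, was 2222 bases in LISC replicate 1 and 3064 to 3367 bases in the other libraries. The TPM of Smad4 in LISC replicate 1 is therefore raised by a shorter estimated length, which does not enter its CPM.

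The inhibitory Smad6, itself a target of BMP signalling, stood at 6.84 and 4.34 CPM in SISC, from 94 and 139 counts, and at 10.1 and 8.73 CPM in LISC, from 109 and 254 counts. Both LISC libraries were above both SISC libraries, also in TPM (1.76 and 1.83 in SISC, 2.29 and 3.99 in LISC). The log2 difference was 0.76 ± 0.38, a 1.69-fold higher level in LISC that did not pass (edgeR adjusted p = 0.548; 95% interval −0.22 to 1.74). It was 0.56 within replicate 1 and 1.01 within replicate 2.

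Smad7, which blocks receptors of both the BMP and the TGF-beta branch, stood at 16.9 and 9.28 CPM in SISC and at 14.0 and 10.96 CPM in LISC. The LISC values lay between the SISC values. The log2 difference was −0.066 ± 0.38 (edgeR adjusted p = 0.9995), and it was −0.27 within replicate 1 and 0.24 within replicate 2. In both groups replicate 1 was above replicate 2 in CPM, whereas in TPM Smad7 was at 5.16 and 3.12 in SISC and at 2.99 and 3.67 in LISC. Its weighted transcript length ran from 2543 bases in SISC replicate 1 to 3985 bases in LISC replicate 2, over 5 transcripts. The ratio of Smad7 to Smad6 in TPM was 2.93 and 1.70 in SISC and 1.31 and 0.920 in LISC, which did not overlap between groups; this ratio carries the length estimates of Smad7.

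**Figure D2:**
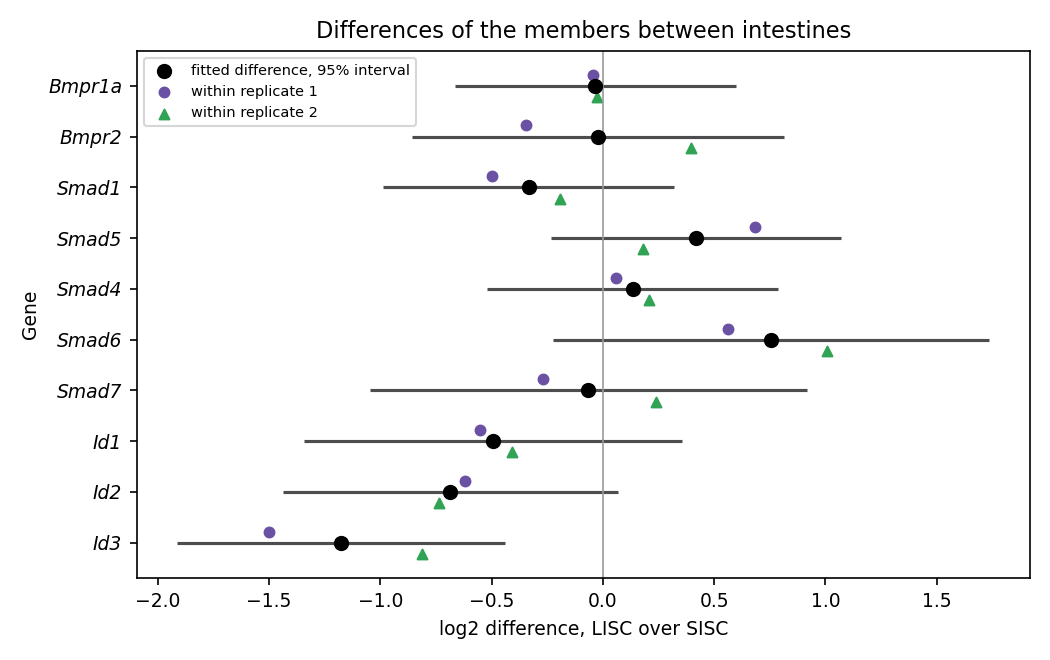
Log2 difference of LISC over SISC for each member. Black points are the edgeR fit over 4 libraries with its 95% interval, circles the difference within replicate 1 and triangles that within replicate 2. The interval of Id3 (−1.91 to −0.44, not adjusted for the number of genes) is the only one that does not hold 0, and Bmpr2 and Smad7 have opposite signs in the 2 replicate numbers.

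The 3 Id genes are close relatives whose likeness lies in the helix-loop-helix, the part that binds E proteins. The stretch of 120 coding bases most alike among the 3 is given 5′ to 3′ from GENCODE vM21 transcripts (GRCm38), because it shows both what the 3 genes share and how much they differ in their best-conserved stretch. It lies in coding exon 1 of each gene, on the plus strand at chr2:152736518-152736637 for Id1, on the minus strand at chr12:25095783-25095902 for Id2 and on the plus strand at chr4:136144002-136144121 for Id3. Capitals mark the 77 bases that are the same in all 3.
Id1: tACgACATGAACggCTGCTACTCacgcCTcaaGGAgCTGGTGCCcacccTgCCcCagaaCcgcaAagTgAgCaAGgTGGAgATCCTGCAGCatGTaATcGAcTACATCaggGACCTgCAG
Id2: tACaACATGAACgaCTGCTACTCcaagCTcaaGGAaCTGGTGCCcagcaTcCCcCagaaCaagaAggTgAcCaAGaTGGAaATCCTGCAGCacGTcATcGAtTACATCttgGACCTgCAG
Id3: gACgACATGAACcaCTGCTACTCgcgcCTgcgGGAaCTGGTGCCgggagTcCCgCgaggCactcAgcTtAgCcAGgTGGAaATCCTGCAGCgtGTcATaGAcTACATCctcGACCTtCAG
Id1 and Id2 shared 98 of the 120 bases, Id2 and Id3 86, and Id1 and Id3 85. The longest run shared by transcripts of any 2 of the 3 was 19 bases, between Id2 and Id3. Expected counts of all 10 members were whole numbers in all 4 libraries, to the 2 decimals deposited, so no fraction of a read was visibly divided between a member and another gene.

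Id1 had the highest level of the members per transcript length in all 4 libraries, at 145 TPM in both SISC libraries and at 77.1 and 118 TPM in the LISC libraries. In CPM it stood at 136 and 94.1 in SISC and at 92.8 and 70.9 in LISC. The groups did not overlap, but SISC replicate 2 and LISC replicate 1 lay next to each other. The log2 difference was −0.49 ± 0.33, a 1.41-fold lower level in LISC that did not pass (edgeR adjusted p = 0.726; 95% interval −1.34 to 0.36).

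Id2 stood at 24.96 and 34.6 CPM in SISC and at 16.2 and 20.8 CPM in LISC. Both LISC libraries were lower in CPM, while in TPM SISC replicate 1 (19.2) lay between the LISC libraries (10.03 and 24.7) and SISC replicate 2 stood above them (38.4). The log2 difference in counts was −0.69 ± 0.29, a 1.61-fold lower level in LISC that did not pass (edgeR adjusted p = 0.433; 95% interval −1.44 to 0.066). It was −0.62 within replicate 1 and −0.74 within replicate 2.

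Id3 showed the widest gap of the members. It stood at 67.2 and 47.6 CPM in SISC, from 924 and 1523 counts, and at 23.7 and 27.1 CPM in LISC, from 256 and 787 counts. Both LISC libraries were below both SISC libraries, and the groups were also apart in TPM (49.1 and 54.5 in SISC, 16.7 and 33.1 in LISC). The log2 difference was −1.18 ± 0.29, a 2.26-fold lower level in LISC that missed the threshold (edgeR adjusted p = 0.146), and 918 of the 14165 genes tested had a smaller p. Within replicate 1 the difference was −1.50 and within replicate 2 it was −0.81. DESeq2 called Id3 at an adjusted p of 0.0334, in a table where it called 6.92% of genes with an adjusted p. edgeR with no filter on low counts also called it (adjusted p = 0.0241), in a table where 5.86% were called. Across all settings tried, the log2 difference of Id3 lay between −1.43 (without SISC replicate 2) and −0.91 (without SISC replicate 1), and its adjusted p between 0.0241 and 1. In 8 other settings 0 of the 10 members were called. The shares of all genes called there were 1.93% with DESeq2 size factors, 3.29% with a minimum count of 50, 1.68% with rRNA and mitochondrial genes left out, and 3.71% with limma-trend on log2(TPM + 1). With SISC replicate 1 or 2 left out they were 3.18% and 2.18%, and with LISC replicate 1 or 2 left out 2.36% and 1.69%.

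**Figure D3:**
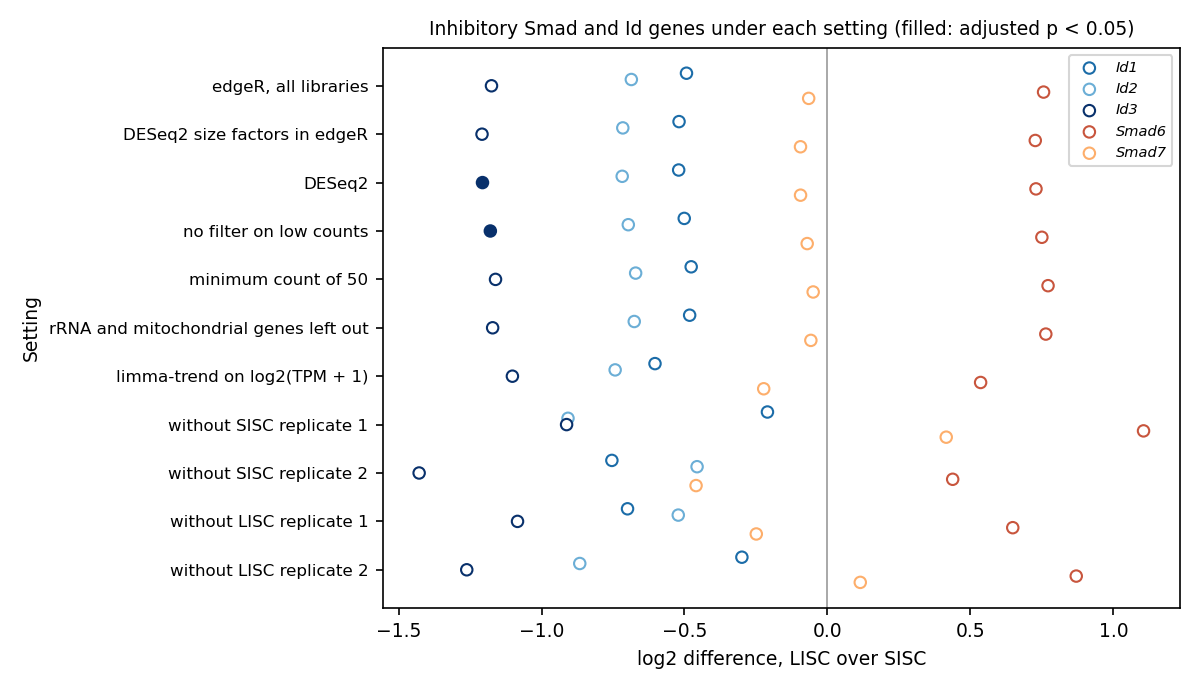
Log2 difference of LISC over SISC of the Id genes and the inhibitory Smad genes under the test over all libraries and under other settings. Filled points have an adjusted p below 0.05, which holds for Id3 with DESeq2 and when no filter was applied. Id1, Id2 and Id3 stay below 0 and Smad6 above 0 in each setting drawn, while Smad7 lies on both sides.

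The Id genes were not in a fixed proportion to each other. Id1 stood 2.96 and 2.66 times above Id3 in TPM in the SISC libraries and 4.61 and 3.56 times above it in the LISC libraries. These ratios did not overlap between groups. Id1 over Id2 was 7.60 and 3.79 in SISC and 7.69 and 4.77 in LISC, where replicate 1 was the higher in both groups and the groups overlapped. Id3 over Id2 was 2.56 and 1.42 in SISC and 1.67 and 1.34 in LISC, which also overlapped. How often ratios of other genes separate the groups was not counted. The ratios that did not overlap, here and for Smad1 over Smad5 and Smad7 over Smad6, are therefore a description only.

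Ordered by mean TPM, the members ran from Id1 through Id3, Smad4, Id2, Smad1, Bmpr1a, Smad5, Smad7 and Bmpr2 to Smad6. Of the neighbours in this order, Id1 and Id3, Id2 and Smad1, Bmpr1a and Smad5, and Smad7 and Bmpr2 kept their order in all 4 libraries. Id3 and Smad4 did not: Id3 was the higher of the pair in both SISC libraries (51.8 ± 3.84 against 26.8 ± 10.5 TPM) and Smad4 in both LISC libraries (33.7 ± 7.91 against 24.9 ± 11.6 TPM). Bmpr2 and Smad6 exchanged places in the same way, with Smad6 at 1.80 ± 0.0495 TPM in SISC and 3.14 ± 1.202 TPM in LISC and Bmpr2 at 2.53 ± 0.0354 and 2.60 ± 1.23 TPM (SD, n = 2 each). The other neighbouring pairs kept their order in 3 of the 4 libraries and do not differ beyond that spread.

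The rest of the pathway was read through 9 lists of 91 genes, of which 56 were tested. Of these, 1 was called in either direction, Fstl1, which was higher in SISC. Of all genes tested, 2.20% were called in either direction and 0.741% were called higher in SISC. A further 14 listed genes had 0 counts in all libraries.

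Few BMP ligand genes were read in these cells. Of 10 ligand genes, 3 were tested, and 3 had 0 counts throughout (Bmp5, Gdf6 and Gdf7). Bmp7 stood at 29.3 and 21.8 CPM in SISC and at 10.01 and 5.53 CPM in LISC. Both LISC libraries were lower, by a log2 difference of −1.73 ± 0.39 that did not pass (edgeR adjusted p = 0.125). Bmp7 was called by DESeq2 (adjusted p = 0.00958) and by edgeR with no filter on low counts (adjusted p = 0.000175), and its adjusted p reached 0.431 without LISC replicate 2. Bmp3, a ligand known mainly as an inhibitor of other BMPs, stood at 30.2 and 24.5 CPM in SISC and at 18.6 and 16.4 CPM in LISC (log2 difference −0.64 ± 0.25, edgeR adjusted p = 0.383). Bmp2 stood at 4.37 and 1.91 CPM in SISC and at 1.205 and 2.17 CPM in LISC, which overlapped. Bmp4, a main stromal ligand of the gut, had at most 4 counts in any library. The median log2 difference of the 3 tested ligand genes was −0.87.

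Of 13 extracellular antagonists, 5 were tested, at a median log2 difference of −0.13. Fstl1, a secreted follistatin-like protein reported to bind BMP4 in mice, fell in LISC. It had 152 and 1073 counts in the SISC libraries, or 11.1 and 33.5 CPM, and 0 and 4 counts in the LISC libraries, or 0 and 0.137 CPM. The log2 difference was −7.79 ± 1.01 (edgeR adjusted p = 0.0403), and its size rests on 4 counts in a single LISC library, replicate 2, since the other LISC library had 0. Its call was kept in all other settings tried. The antagonist genes Grem1 and Sostdc1 had 0 counts in all libraries and Nog had 1 count in 1 library; a count of 0 allows up to 0.0937 to 0.278 CPM, for counting error only. Twsg1, which modulates the binding of BMPs to chordin, stood at 34.6 and 48.2 CPM in SISC and at 54.9 and 54.3 CPM in LISC (log2 difference 0.40 ± 0.28, edgeR adjusted p = 0.743). Dand5, of the DAN family of antagonists, stood at 1.02 to 2.99 CPM and its groups overlapped.

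Of the other BMP and activin-type receptor genes, 4 of 5 were tested and 0 were called, at a median log2 difference of 0.46. Bmpr1b, the other BMP type I receptor gene, had 0 counts in all 4 libraries. Acvr1, a type I receptor gene that also passes BMP signals, stood at 10.3 to 11.9 CPM in all libraries (log2 difference 0.012 ± 0.27, edgeR adjusted p = 0.9995). Acvr2a, a type II receptor gene shared by activins and BMPs, stood at 15.5 and 18.6 CPM in SISC and at 29.003 and 35.4 CPM in LISC (log2 difference 0.92 ± 0.26, edgeR adjusted p = 0.194). Its relative Acvr2b was at 7.42 and 9.15 CPM in SISC and at 6.49 and 7.08 CPM in LISC. Acvrl1, a type I receptor gene known from endothelium and chosen here after its values were seen, had 4 and 2 counts in SISC and 64 and 160 counts in LISC, or 5.93 and 5.50 CPM (log2 difference 5.16 ± 0.87, edgeR adjusted p = 0.0652). It was called by DESeq2, with no filter, by limma-trend on TPM and without SISC replicate 1.

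Of the co-receptors and the decoy receptor, 4 of 7 were tested and 0 were called, at a median log2 difference of −0.030. Rgmb, a co-receptor of BMPs, was the highest of them in CPM, at 234 and 294 in SISC and 204 and 116 in LISC. Its groups did not overlap, with a log2 difference of −0.72 ± 0.40 (edgeR adjusted p = 0.613) that was −0.20 within replicate 1 and −1.34 within replicate 2. Its binding partner Neo1 stood at 78.7 to 147 CPM and its groups overlapped. Bambi, the decoy receptor, stood at 8.88 and 2.37 CPM in SISC and at 5.19 and 5.36 CPM in LISC, a spread between SISC replicates wider than any gap between groups. Rgma, chosen after its values were seen, had 6 and 2 counts in SISC and 36 and 67 counts in LISC. Its log2 difference was 3.61 ± 1.07 (edgeR adjusted p = 0.220), and DESeq2 and edgeR with no filter called it.

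In the TGF-beta and activin branch, which shares Smad4 and Smad7 with the BMP branch, 7 of 11 genes were tested and 0 were called, at a median log2 difference of 0.59. Tgfbr2, the type II TGF-beta receptor gene, came closest to the threshold. It stood at 20.6 and 29.5 CPM in SISC and at 109 and 98.0 CPM in LISC. Both LISC libraries were above both SISC libraries, by a log2 difference of 2.04 ± 0.31, or 4.11-fold, that did not pass (edgeR adjusted p = 0.0522). It was called by DESeq2 (adjusted p = 8.00e-06) and by edgeR with no filter (adjusted p = 1.35e-05) or a minimum count of 50 (adjusted p = 0.0423), and its adjusted p reached 0.262 with limma-trend on TPM. Acvr1b, a type I activin receptor gene, was at 74.7 and 60.2 CPM in SISC and at 122 and 81.5 CPM in LISC (log2 difference 0.59 ± 0.33, edgeR adjusted p = 0.611). Smad2, a receptor-regulated Smad of this branch, stood at 25.3 to 34.7 CPM and its groups overlapped.

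Of 18 Smad ligases, phosphatases and corepressors, 16 were tested and 0 were called, at a median log2 difference of −0.091, with groups overlapping in 12. Over all genes tested, groups did not overlap in 40.3%. The phosphatase genes Ctdsp1 and Ctdsp2 and the corepressor gene Tgif1 had log2 differences of −0.16 ± 0.26, −0.11 ± 0.39 and −0.067 ± 0.26. Ctdspl, chosen after its values were seen, stood at 21.9 and 29.7 CPM in SISC and at 55.3 and 71.8 CPM in LISC. Its log2 difference was 1.30 ± 0.30 (edgeR adjusted p = 0.129), and DESeq2 and edgeR with no filter called it.

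**Figure D4:**
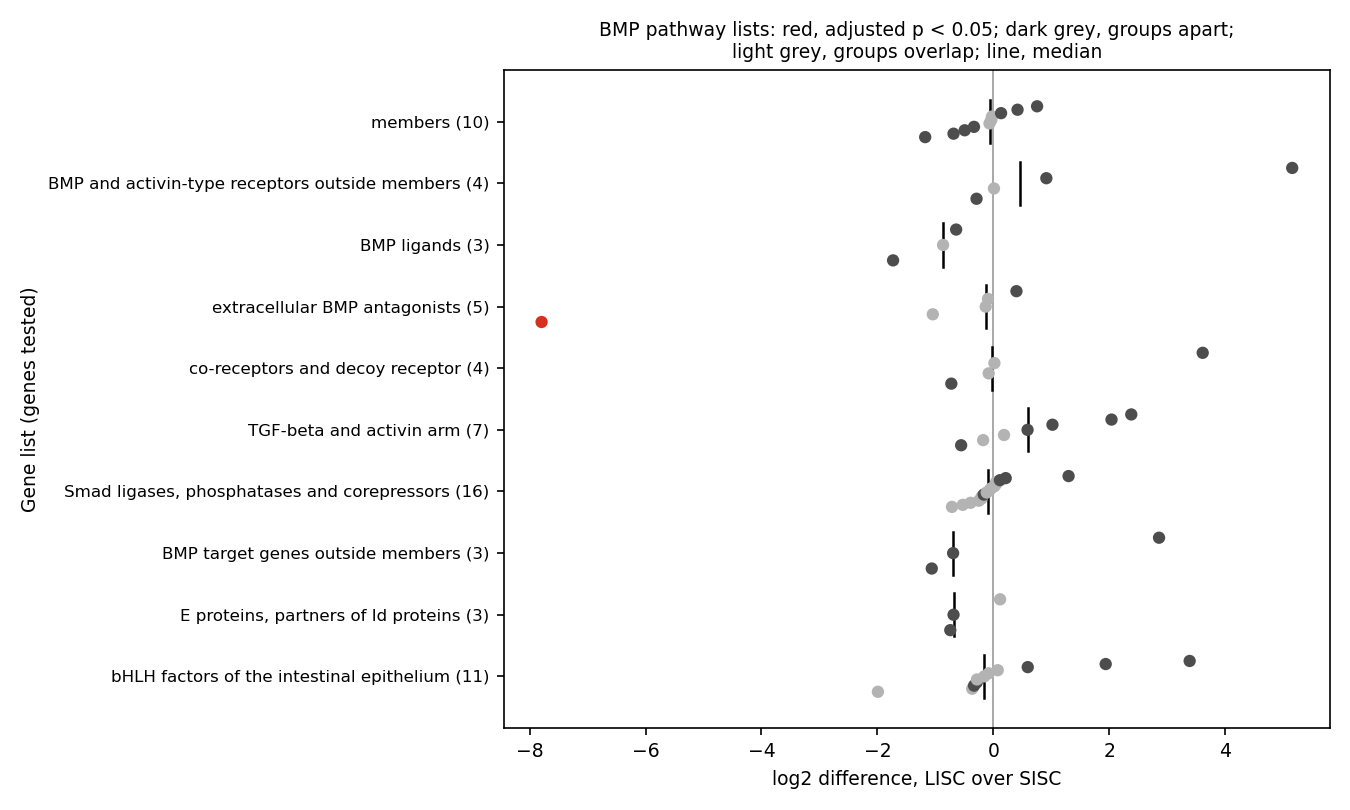
Log2 difference of LISC over SISC for each tested gene of the members and of 9 pathway lists, with the number tested in parentheses and a line at each median. Red is an adjusted p below 0.05, dark grey marks groups that do not overlap and light grey groups that do. Fstl1, at −7.79, is the single red point. The Smad ligases, phosphatases and corepressors have a median of −0.091, with Ctdspl apart at 1.30.

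Of 10 further BMP target genes, 3 were tested and 0 were called, at a median log2 difference of −0.69. Atoh8, a helix-loop-helix factor gene, stood at 12.9 and 10.2 CPM in SISC and at 8.25 and 6.05 CPM in LISC (log2 difference −0.69 ± 0.33, edgeR adjusted p = 0.511). Smad9, the receptor-regulated relative of Smad1 and Smad5, stood at 1.38 and 2.00 CPM in SISC and at 0.834 and 0.791 CPM in LISC (log2 difference −1.06 ± 0.64, edgeR adjusted p = 0.671). Id4 went the other way from the member Id genes but was near the floor, with 3 and 5 counts in SISC and 15 and 39 in LISC (log2 difference 2.86 ± 0.79, edgeR adjusted p = 0.188).

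The E proteins, the partners of Id proteins, were all tested and 0 of 3 were called, at a median log2 difference of −0.69. Tcf3 stood at 149 and 96.9 CPM in SISC and at 89.7 and 57.2 CPM in LISC, lower in both LISC libraries (log2 difference −0.74 ± 0.38, edgeR adjusted p = 0.566). Tcf12 stood at 92.3 and 78.1 CPM in SISC and at 45.6 and 60.3 CPM in LISC (log2 difference −0.69 ± 0.29, edgeR adjusted p = 0.420). Tcf4 was at 22.7 and 28.7 CPM in SISC and at 25.5 and 30.3 CPM in LISC, which overlapped. Of 14 other helix-loop-helix factor genes of the epithelium, 11 were tested and 0 were called, at a median log2 difference of −0.16. Their groups overlapped in 6, with LISC above in 3 and SISC above in 2. Over all genes tested, LISC was above in 21.9% and SISC in 18.4%. Atoh1, chosen after its values were seen, stood at 6.55 and 2.47 CPM in SISC and at 33.5 and 59.2 CPM in LISC. Its log2 difference was 3.39 ± 0.60 (edgeR adjusted p = 0.0749). It was called by DESeq2, by edgeR with no filter and by limma-trend on TPM. Hes1, a Notch target, stood at 61.7 and 147 CPM in SISC and at 78.2 and 120 CPM in LISC, higher in replicate 2 of both groups. The log2 differences of Myc and Hes6 were −0.33 ± 0.28 and −0.29 ± 0.25.

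By distance between centred log2 CPM over the 4 libraries, the pattern of Id1 was closest to that of Smad3 (distance 0.0611) and then of Atoh8 (0.257), among 65 other genes of the pathway. The nearest to Id2 were Smad1 (0.439) and Acvr2b (0.447), and the nearest to Id3 were Tcf12 (0.519) and Bmp3 (0.601). With 4 libraries these distances are a description only.

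Markers of other cell types were read beside these genes. Of 10 endothelial markers, 9 were under 1 CPM in every library and Kdr and Emcn had 0 counts, with a summed level of 1.24 to 1.37 CPM in SISC and 2.99 to 4.73 CPM in LISC. Of 10 stromal markers, 8 were under 1 CPM in every library, with sums of 2.50 to 7.13 CPM in SISC and 5.47 to 6.84 CPM in LISC. Of 11 immune markers, 9 were under 1 CPM in every library, with sums of 2.98 to 3.84 CPM in SISC and 2.41 to 6.87 CPM in LISC. Summed levels of some classes of differentiated epithelial cells differed more between groups. The 7 Paneth markers summed to 1458 to 8938 CPM in SISC and to 27.0 to 53.7 CPM in LISC. The 8 goblet markers summed to 467 to 2140 CPM in SISC and to 3942 to 8450 CPM in LISC. The 6 tuft markers summed to 4.498 to 21.2 CPM in SISC and to 83.2 to 129 CPM in LISC. Of the Paneth markers 1 was called, higher in SISC, and of the goblet and tuft markers 0 were called. The goblet markers Tff3, Clca1 and Zg16 overlapped between groups, while the other goblet markers were higher in both LISC libraries. The 9 enteroendocrine markers summed to 37.9 to 191 CPM in SISC and to 82.8 to 114 CPM in LISC, with Gip called higher in SISC and Sct higher in LISC. The 8 absorptive markers of the large intestine summed to 49.7 to 112 CPM in SISC and to 496 to 1733 CPM in LISC, with a median log2 difference of 2.97 and 2 called higher in LISC. The 8 absorptive markers of the small intestine summed to 123 to 154 CPM in SISC and to 53.9 to 136 CPM in LISC, with a median of −2.95 and 2 called higher in SISC. Most of the LISC sums was Fabp2 (51.2 and 131 CPM, log2 difference 0.45). The other markers of this list were lower in both LISC libraries. The 8 proliferation markers summed to 1445 to 2428 CPM in SISC and to 1250 to 2159 CPM in LISC, and 0 were called. None of the markers of differentiated cells was at 0 in all 4 libraries. Gnat3 (tuft), Car1 and Aqp8 (absorptive, large intestine) were at 0 in both SISC libraries, and Gip and Apoa4 (absorptive, small intestine) in both LISC libraries. The part of these cell types in the levels of the Id genes, Smad6, Bmp7, Fstl1 and Tgfbr2 was not tested.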

How the data were processed

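Poly(A) RNA of 4 libraries was made into strand-marking libraries, per the labels' protocols. Per the submitters' processing notes, the tools and builds named are STAR 2.7.2b, RSEM 1.2.31 and GRCm38 (mm10). An annotation release and a strand setting were not given in the sources used here. Deposited were RSEM expected counts (estimated counts per gene, where reads that fit several genes are divided) and TPM values that the authors scaled by effective transcript length, beside those lengths. Without a stated strand setting, reads of overlapping antisense genes cannot be told apart; Gm17110, antisense to Bmpr1a, had at most 1 count.

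Of 55487 identifiers, 55227 matched a GENCODE vM21 symbol. Counts were rounded and fitted in R 4.3.3 with edgeR 4.0.16 (group only, TMM, filterByExpr with minimum count 10, threshold 0.05). The fit was first run on simulated counts with less spread between libraries than these data and no replicate effect. That run does not show how the fit performs here. CPM is TMM-scaled. SE is the log2 difference divided by the square root of F, and 95% intervals use the test's degrees of freedom. Ratios within a replicate number add 0.5 counts. Alternatives were DESeq2 1.42.0, limma 3.58.1 on log2(TPM + 1), other filters and scalings, a replicate term and leaving out each library, where the lone library left in a group is assumed to vary like the other group. Chi-square between the replicates of a group, per degree of freedom, was 804 (SISC) and 750 (LISC). It includes the rRNA gene, so it cannot tell separate animals from technical repeats. Intervals and floors cover few libraries or counting error only. The members and lists were chosen with earlier results of these data known. Named are the members, each list's called genes and its up to 3 with the highest mean TPM, and the 2 nearest in pattern to each Id gene. Listed genes outside this rule (Acvrl1, Atoh1, Ctdspl, Rgma, and Bmp4, Bmpr1b and others at or near 0) were chosen after their values were seen.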

Additional observations from a re-analysis of the deposited data

How the results depend on the processing

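With 2 libraries per group, depth limits little for the members (94 counts or more in each library). The width of their intervals rests on a spread between replicates that the fit shares in part across genes. It does not follow a member's own spread alone: Bmpr1a, with close values in all libraries, had an SE of 0.24, beside 0.25 for Smad5. All 11 alternatives left Smad1, Smad4, Smad5, Smad6, Id1, Id2 and Id3 in the same direction, and Id3 was called in 3 of them. The total of 311 called genes became 1151 with DESeq2, 1407 with no filter on low counts, 525 with limma-trend on TPM, and 245 to 487 when each library was left out in turn, highest without SISC replicate 1. The count of called members, 0 in the edgeR test, was 1 (Id3) with DESeq2 and with no filter, and 0 whichever library was left out. The 1 called pathway gene became 7 with DESeq2, 9 with no filter, 2 with a minimum count of 50, 3 with limma-trend, and 1 to 3 when each library was left out (2 without SISC replicate 2 or LISC replicate 1, 3 without SISC replicate 1); the cause was not tested.

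The labels do not say that replicate numbers mark shared animals or days. Deviations of the same-numbered libraries correlated at 0.634 across genes. With the replicate number as a block, 1539 genes were called (10.9% of those tested), with 1 member (Id3, log2 difference −1.15, adjusted p = 0.0275) and 9 pathway genes among them, Tgfbr2 (adjusted p = 0.00444), Bmp7 (0.00732), Acvr2a (0.0253) and Tcf3 (0.0310) included.

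Signs turned for values near 0, none of them called. With the replicate block, the log2 difference of Bmpr2 was 0.032, of Bambi 0.22 and of Hes1 0.015. With DESeq2 size factors that of Acvr1 was −0.015 and of Neo1 −0.0067, and with DESeq2 −0.018 and −0.0069. With limma-trend, Bambi was at 0.085 and Tcf4 at −0.28. Leaving out each library gave values of both signs for Bmpr1a (−0.089 to 0.0015), Bmpr2 (−0.38 to 0.40), Smad7 (−0.46 to 0.42), Acvr1 (−0.093 to 0.12), Dand5 (−1.07 to 0.46), Neo1 (−0.38 to 0.53), Bambi (−0.77 to 1.14), Tgif1 (−0.21 to 0.057), Ctdsp2 (−0.42 to 0.20), Tcf4 (−0.048 to 0.27) and Hes1 (−0.58 to 0.65).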
